A study of Rattus norvegicus with 74 samples.

Results

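The liver response of Wistar Han rats to phenobarbital at 45 mg/kg was measured by setting the 5 arrays labelled phenobarbital 45 mg/kg against the 5 arrays labelled phenobarbital 0 mg/kg. These are 10 of the 74 arrays of a series that also holds phenobarbital at 5 mg/kg (5 arrays), the polybrominated diphenyl ether BDE-47, the commercial diphenyl ether mixture DE-71 and the polychlorinated biphenyl PCB126, each with 0 mg/kg controls of its own. All phenobarbital groups are of strain Crl:WI (Han), were dosed by oral gavage and gave RNA from the left liver lobe. Every group used here is labelled postnatal day 22, so these are livers of young rats. The comparison groups used below are BDE-47 at 0 and 50 mg/kg (5 arrays each, of which 2 near-identical controls were averaged) and DE-71 at 0 (5 arrays) and 50 mg/kg (4 arrays), of the same strain, route and tissue, with dams dosed from gestation day 6 to 21 and pups from postnatal day 12 to 21. The labels describe daily exposure in utero and after birth until postnatal day 22 for the series, but give no dosing days for phenobarbital and neither sex nor litter. The phenobarbital groups differ in dose alone by their labels. Each value is a log2 expression level of a probe set on an Affymetrix rat array, and 14217 genes were measured, each through the probe set with the highest mean. A difference of 1 on this scale is a doubling.

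The 15 phenobarbital arrays were alike in their overall signal, with medians of 4.97 to 5.04 and mean correlations of 0.99 with the other arrays of the same dose. Their number, not a counting depth, limits the precision. SEs and p values cover the spread between animals as labelled, estimated for each gene over all groups of the series, other agents included. Hepatocyte markers identified the tissue: the summed level of 9 markers, on a log2 scale, was 17.22 to 17.29 in the controls and 17.17 to 17.21 at 45 mg/kg, so that every treated array lay slightly below every control. The Y-linked gene Eif2s3y lay between 8.22 and 9.26 on all 15 arrays. Marker sums of macrophages (9 genes), stellate cells (12), endothelium (10), lymphocytes (12), neutrophils (6), erythroid cells (8) and of pancreas and gut (12) overlapped between both doses, and none of these markers was called. In whole tissue, fewer cells of a type and less RNA per cell cannot be told apart.

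Phenobarbital is the classic inducer of drug metabolism in the liver. It activates the constitutive androstane receptor (CAR) of hepatocytes indirectly, and CAR enters the nucleus, pairs with the retinoid X receptor and binds response elements near genes for cytochromes P450, conjugating enzymes and export pumps. The related pregnane X receptor (PXR) shares many of these genes. Hepatocytes under this stimulus also expand their smooth endoplasmic reticulum (ER), and CAR is known in rodents to lower genes of bile acid, lipid and glucose metabolism.

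At 45 mg/kg, 384 of the 14217 genes were called at a limma adjusted p below 0.05, or 2.7% of all genes tested, of which 196 rose (1.38%) and 188 fell (1.32%). Changes of at least 1.5-fold were found for 112 of the 196 risen genes and 66 of the 188 fallen genes. These are 0.788% and 0.464% of all genes tested. Without 45 mg/kg replicate 5 the count was 233, 136 risen and 97 fallen, and with all 15 phenobarbital arrays alone in the fit it was 739. All treated arrays lay outside the control range for 800 genes (5.63%), above it for 318 (2.24%) and below it for 482 (3.39%). The median over all genes was -0.02, and it stayed between -0.04 and -0.005 in each of 6 ranges of brightness, so the changes below stand against a background close to 0.

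**Figure D1:**
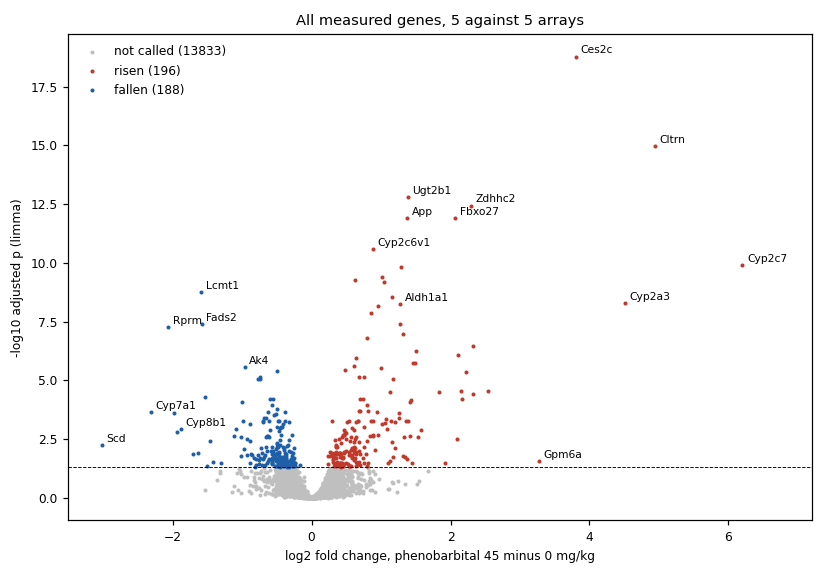
Log2 fold change of phenobarbital 45 against 0 mg/kg (horizontal axis) and -log10 of the adjusted p (vertical axis) for all 14217 genes, 1 point per gene, with the dashed line at an adjusted p of 0.05. Red points are the 196 risen and blue points the 188 fallen genes, with Cyp2c7 farthest to the right and Scd farthest to the left.

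The 4 largest rises were Cyp2c7, Cltrn, Cyp2a3 and Ces2c. Cyp2c7 encodes a cytochrome P450 of retinoid and steroid oxidation. Its level was 7.91, 7.41, 7.33, 6.82 and 6.87 on the control arrays and 13.46, 13.58, 13.58, 13.49 and 13.23 at 45 mg/kg. The groups lay far apart, and the treated arrays were also closer to each other (SD 0.14 against 0.45). The rise was 73.5-fold, or 6.20 log2 units (SE 0.65, adjusted p = 1.25e-10). Cltrn encodes collectrin, a membrane protein that in mice assists amino acid transporters of the kidney. It stood at 3.21, 3.37, 3.10, 3.11 and 3.35 in the controls and at 8.05, 9.27, 7.72, 8.43 and 7.39 at 45 mg/kg. No array overlapped, and the difference was 4.94 (SE 0.38, adjusted p = 1.03e-15). Its control level is near the low end of the arrays' range, and with no detection call used here the size of the rise is uncertain. Cyp2a3, a P450 best known from rat lung and nasal tissue, stood at 8.37, 8.45, 6.59, 7.45 and 6.18 in the controls and at 12.02, 11.88, 11.37, 12.12 and 12.20 when treated. Its controls were widely scattered (SD 1.02), yet all lay below the treated arrays, with a difference of 4.51 (SE 0.53, adjusted p = 5.25e-09). Ces2c, a carboxylesterase of the ER that cleaves ester drugs and lipids, had control values of 9.11, 7.84, 8.29, 9.35 and 8.20 and treated values of 12.43, 12.50, 12.36, 12.32 and 12.21. It had the lowest adjusted p of all genes (3.81, SE 0.24, adjusted p = 1.64e-19).

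The 4 largest falls were Scd, Cyp7a1, Rprm and Pcp4l1. Scd encodes stearoyl-CoA desaturase, which makes monounsaturated fatty acids. It stood at 6.88, 8.72, 8.23, 7.80 and 9.16 in the controls and at 4.67, 5.37, 5.40, 5.43 and 4.85 at 45 mg/kg. The groups did not overlap although the controls spread over more than 2 log2 units, and the gene fell by 3.02 (SE 0.70, adjusted p = 0.00581). Rprm encodes Reprimo, a p53-induced protein of cell cycle arrest. It stood at 7.39, 7.99, 7.99, 7.83 and 7.84 in the controls and at 4.94, 5.65, 6.74, 6.06 and 5.31 when treated, lower on every treated array, and fell by 2.07 (SE 0.26, adjusted p = 5.28e-08). Pcp4l1, a small relative of the Purkinje cell protein PCP4, fell by 1.98 (SE 0.37, adjusted p = 0.000255), and its second probe set was at -1.997.

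The promoters of the 3 largest rises and the 3 largest falls with a RefSeq entry are shown because these genes mark both ends of the response and nuclear receptors read short half-sites in such sequences. Each run is the 250 bases before the gene's start on the gene's strand, build GRCr8, and capitals mark either half-site, AGGTCA or AGTTCA, on either strand. Cyp2c7 lies at chr1:247966144-247966393 on the plus strand, Cltrn at chrX:34027125-34027374 on the minus strand and Cyp2a3 at chr1:91299334-91299583 on the plus strand. Scd lies at chr1:253231732-253231981, Rprm at chr3:58950036-58950285 and Pcp4l1 at chr13:86144900-86145149, all on the minus strand.
Cyp2c7: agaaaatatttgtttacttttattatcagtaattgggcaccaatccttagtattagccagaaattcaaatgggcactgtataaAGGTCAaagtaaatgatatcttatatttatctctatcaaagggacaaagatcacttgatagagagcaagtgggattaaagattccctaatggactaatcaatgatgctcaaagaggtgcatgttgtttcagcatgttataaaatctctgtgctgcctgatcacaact
Cltrn: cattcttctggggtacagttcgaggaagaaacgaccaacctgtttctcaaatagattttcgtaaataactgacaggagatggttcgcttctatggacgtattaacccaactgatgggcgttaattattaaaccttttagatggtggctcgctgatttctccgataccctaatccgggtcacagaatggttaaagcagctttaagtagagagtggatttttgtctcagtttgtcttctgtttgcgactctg
Cyp2a3: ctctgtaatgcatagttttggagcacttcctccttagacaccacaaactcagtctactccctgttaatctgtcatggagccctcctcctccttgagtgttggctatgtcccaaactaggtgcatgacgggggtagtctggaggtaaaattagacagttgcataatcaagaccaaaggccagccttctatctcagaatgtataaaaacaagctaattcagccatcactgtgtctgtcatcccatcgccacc
Scd: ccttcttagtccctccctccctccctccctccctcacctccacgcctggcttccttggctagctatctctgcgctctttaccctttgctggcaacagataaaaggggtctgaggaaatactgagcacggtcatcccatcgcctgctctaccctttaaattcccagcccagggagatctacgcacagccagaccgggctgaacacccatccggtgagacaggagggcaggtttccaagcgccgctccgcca
Rprm: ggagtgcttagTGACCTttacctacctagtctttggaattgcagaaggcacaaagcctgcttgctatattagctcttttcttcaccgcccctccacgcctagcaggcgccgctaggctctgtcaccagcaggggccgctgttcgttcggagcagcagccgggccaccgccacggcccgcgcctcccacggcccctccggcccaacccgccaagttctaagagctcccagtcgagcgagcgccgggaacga
Pcp4l1: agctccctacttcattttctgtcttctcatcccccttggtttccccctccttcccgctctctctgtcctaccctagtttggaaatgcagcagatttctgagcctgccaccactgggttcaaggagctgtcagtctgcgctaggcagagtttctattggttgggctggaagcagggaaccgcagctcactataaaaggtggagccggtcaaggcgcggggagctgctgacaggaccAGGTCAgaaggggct

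Cyp2c7 holds 1 AGGTCA beginning 167 bases before the start, Rprm 1 on the opposite strand at 239 bases, Pcp4l1 1 at 15 bases, and the other 3 promoters hold neither half-site. Of all 27457 promoters listed by RefSeq, 23.8% hold a half-site, as do 43 of 169 risen genes with an entry (25.4%) and 40 of 159 fallen genes (25.2%). By half-site, AGGTCA is found in 13.7% of all promoters, 15.4% of the risen and 19.5% of the fallen genes. AGTTCA is found in 12.1% of all promoters, in 22 of the 169 risen genes and in 7.55% of the fallen genes. A direct repeat of 2 half-sites with 4 bases between them (DR4, half-sites as above) occurs in 4 of all promoters and in 0 of the risen or fallen genes. These are counts of letters in a short window, and distant enhancers were not looked at.

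**Figure D2:**
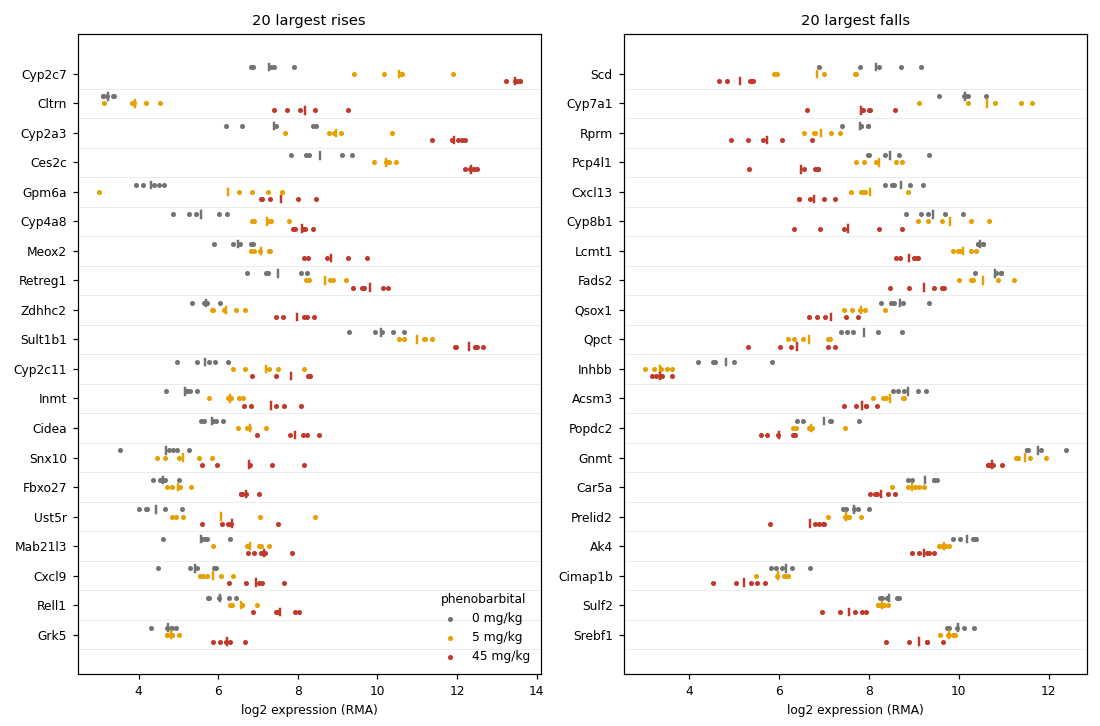
Log2 expression (horizontal axes) of 20 strongly risen and 20 strongly fallen genes, the farthest from 0 on each side whose 5 treated arrays lay outside the control range, 1 point per array and a tick at the group mean, in grey for 0, orange for 5 and red for 45 mg/kg of phenobarbital. Cyp2c7 and Ces2c stand between both ends at 5 mg/kg, whereas Cltrn at 5 mg/kg lies near the controls and Inhbb at 5 mg/kg lies with the 45 mg/kg arrays.

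Most measured CAR and PXR targets rose. Of the 29 measured genes listed as CAR and PXR targets, 20 rose and 0 fell (69.0% called), with a median of 0.996 against -0.02 over all genes. Among their P450s, Cyp2c11, the main P450 of adult male rat liver, rose by 2.16 (SE 0.37, adjusted p = 6.24e-05), and Cyp2c6v1 by 0.88 (SE 0.09). Cyp3a2, a drug-oxidizing P450, rose by only 0.29 (SE 0.06, adjusted p = 0.000527), from 13.87 to 14.17. The probe set for a pair of Cyp2b genes, the classic phenobarbital targets, is not among the genes because it names both. It rose from 12.12 ± 0.19 to 14.09 ± 0.05 (SD, n = 5 each), by 1.97 (SE 0.21, adjusted p = 2.59e-10). Of 34 other P450 genes, 2 rose and 1 fell: Cyp4a8, a fatty acid hydroxylase, rose by 2.54 (SE 0.42, adjusted p = 2.77e-05) and its second probe set by 1.72, and Cyp39a1, an oxysterol hydroxylase of bile acid synthesis, by 0.89. Cyp2t1 fell by 0.56, a call lost in 6 of 10 fits that each left out an array (leave-one-out fits). P450s of near-identical sequence can share probes, and this was not tested.

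Of 18 genes of electron supply and heme synthesis, 4 rose and 0 fell, with a median of 0.07. Por, the reductase that supplies all microsomal P450s, stood at 9.70, 8.94, 8.89, 8.71 and 9.24 in the controls and at 10.43, 10.15, 9.79, 10.08 and 10.40 at 45 mg/kg, higher on every treated array (1.08, SE 0.21, adjusted p = 0.000437). Its second, dimmer probe set was at 1.30 and was not called (adjusted p = 0.116). Pgrmc1, a heme-binding partner of P450s, rose by 0.48 and cytochrome b5 (Cyb5a) by 0.34, both with treated arrays above all controls. Blvrb, a biliverdin reductase, rose by 0.43, a call lost in 8 of 10 leave-one-out fits.

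In each list of other oxidizing and hydrolysing enzymes given here, the called share was above the 2.7% of all genes. It was highest for the carboxylesterases and hydrolases. Of 12 carboxylesterases and hydrolases, 3 rose: Ces2c, Ces1d by 0.76 (call lost in 6 of 10 leave-one-out fits), and Ephx1, the microsomal epoxide hydrolase, by 1.36 (SE 0.26, adjusted p = 0.000508). Of 40 alcohol, aldehyde and carbonyl dehydrogenases, 2 rose, led by Aldh1a1, a retinal dehydrogenase, at 1.28 (SE 0.15, adjusted p = 5.49e-09). Akr7a2, an aldehyde reductase, rose by 0.36, a call lost in 6 of 10 leave-one-out fits. The flavin monooxygenase gene Fmo5 fell by 0.67 (SE 0.17, adjusted p = 0.015), the only member called of 10 monooxygenases and oxidases. That call was lost in 3 of 10 leave-one-out fits.

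Several genes of conjugation families rose. Of 25 genes for UDP-glucuronosyltransferases (UGT) and sulfotransferases, 6 rose and 1 fell, with a median of 0.12. Ugt2b1, which glucuronidates steroids and drugs, stood at 12.32, 12.57, 12.50, 12.37 and 12.17 in the controls and at 13.75, 13.69, 13.71, 13.82 and 13.86 at 45 mg/kg. Both groups were tight and far apart (1.38, SE 0.12, adjusted p = 1.59e-13). Ugt2a1 rose by 1.27, Ugt2b10 by 0.86, Ugt2b15 by 0.66 and Ugt2b35 by 0.62. Sult1b1, a sulfotransferase of thyroid hormones, rose by 2.23 (SE 0.34, adjusted p = 4.17e-06), with treated values of 12.45, 11.97, 11.95, 12.65 and 12.51 against 9.29, 10.11, 9.93, 10.66 and 10.40. With Ugt2b1 and the malic enzyme gene Me1, it made up the 3 risen genes of 22 in thyroid hormone handling and response, where 0 fell.

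Of 31 glutathione S-transferase and glutathione genes, 7 rose and 0 fell, and the median was 0.22. Gstm3 (0.996), Gstm1 (0.82), Gstt3 (0.81) and Gsta4 (0.75) had the lowest p values. Gstm3, Gstm2 and Gstm1 are neighbours in the annotation with no other measured gene between them, and all 3 rose, Gstm2 by 1.34 with its call lost in 3 of 10 leave-one-out fits. Such runs of at least 3 neighbouring called genes were found 3 times among the 14204 genes that could be placed. The others were Cyp2c11, Cyp2c6v1 and Cyp2c7, which rose, and the apolipoprotein genes Apoc2 (-0.32), Apoc4 (-0.43) and Apoc1 (-0.16), which fell. The calls of Apoc4 and Apoc1 were each lost in 8 of 10 leave-one-out fits.

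A list drawn up as other phase II enzymes was called in both directions. Of its 17 genes, 1 rose and 4 fell. The roles given below for the 4 fallen genes are not those of drug conjugation. Inmt, which methylates indole amines such as tryptamine, rose by 2.15 (SE 0.35, adjusted p = 2.77e-05). Lcmt1, the methyltransferase of the protein phosphatase PP2A catalytic subunit, stood at 10.44, 10.42, 10.54, 10.46 and 10.53 in the controls and at 8.69, 9.07, 8.995, 9.09 and 8.59 at 45 mg/kg. Its controls agreed within about 0.1, and the fall of 1.59 (SE 0.18, adjusted p = 1.76e-09) had the lowest p of all fallen genes. Gnmt, which consumes S-adenosylmethionine to methylate glycine, fell by 1.01 (SE 0.18, adjusted p = 8.04e-05). Pemt, which makes phosphatidylcholine by methylation, fell by 0.55 and Mpst, a sulfurtransferase, by 0.43.

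The called transporters included pumps of drugs and conjugates, which rose, and both sterol exporters, which fell. Of 36 transporters, 4 rose and 3 fell. Abcb1a, encoding P-glycoprotein, rose by 1.46 (SE 0.21, adjusted p = 1.89e-06), with a second probe set at 1.67. Abcc3, the basolateral conjugate pump, rose by 1.26 and Abcc2, the canalicular conjugate pump, by 1.13. Abcg8, which with Abcg5 exports sterols into bile, stood at 7.36, 6.52, 5.82, 7.62 and 7.23 in the controls and at 5.86, 5.55, 5.24, 4.23 and 5.53 when treated. Control replicate 3 overlapped the treated arrays, and the fall of 1.63 (SE 0.41, adjusted p = 0.0123) was not called when replicate 4 of either dose was left out. Abcg5 also fell, by 1.42, a call lost in 4 of 10 leave-one-out fits. Of 28 NRF2 targets, genes of the antioxidant response, 4 rose and 0 fell with a median of 0.39: Abcc3, Ephx1, Gsta4 and Me1 (1.37), all of which stand on other lists too. The call of Me1 was lost in 4 of 10 leave-one-out fits.

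The enzyme of the entry step of bile acid synthesis fell. Of 19 genes, 2 rose and 3 fell, with a median of -0.05. Cyp7a1, the rate-limiting enzyme, stood at 10.60, 9.56, 10.15, 10.12 and 10.20 in the controls and at 6.62, 7.87, 8.59, 7.99 and 8.03 at 45 mg/kg. The lowest control was above the highest treated array, and the gene fell by 2.31 log2 units, or 4.95-fold (SE 0.42, adjusted p = 0.000214). Cyp8b1, which makes cholic acid, had control values of 9.16, 9.69, 10.08, 8.84 and 9.32 and treated values of 6.91, 6.34, 8.74, 8.23 and 7.44. The treated arrays were spread wide and the nearest lay just below the lowest control (-1.88, SE 0.39, adjusted p = 0.00115). Cyp27a1 fell by 0.43, a call lost when control replicate 1 or treated replicate 3 was left out, while Cyp39a1 and Ephx1 rose.

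Genes of sterol and fatty acid metabolism were called in both directions. Of 22 genes of cholesterol synthesis and uptake, 3 rose and 1 fell, and the median was 0.37. Sc5d, a late desaturase of cholesterol synthesis, rose by 0.67 (SE 0.13, adjusted p = 0.000537), with 0.80 and 0.56 on its other probe sets and no call with the most variable (adjusted p = 0.0756). Msmo1, a sterol methyl oxidase, rose by 1.10 and Insig2, which holds sterol regulators in the ER, by 0.80. The call of Msmo1 was lost in 7 and that of Insig2 in 9 of 10 leave-one-out fits. A second, about equally bright probe set of Insig2 was at 0.40 and was not called (limma adjusted p = 0.392). Scap, the escort protein of the sterol regulatory factors, fell by 0.70 (SE 0.14, adjusted p = 0.000561), and its second, dim probe set was at -0.06. Of 13 genes of the liver X receptor (LXR) and sterol export, 1 rose and 4 fell: Scd, Srebf1, Abcg8 and Abcg5 fell and Lpl rose. Srebf1, the master regulator of fatty acid synthesis, stood at 9.78, 10.33, 9.95, 9.73 and 10.11 in the controls and at 8.39, 9.30, 9.30, 9.64 and 8.90 when treated. Its highest treated array came close to the lowest control, and the fall of 0.87 (SE 0.22, adjusted p = 0.0137) was not called in 3 of 10 leave-one-out fits, nor with the more variable probe set.

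Of 46 genes of fatty acid and triglyceride synthesis, 4 rose and 5 fell, and without 45 mg/kg replicate 5, 3 rose and 2 fell. Fads2, the delta-6 desaturase of polyunsaturated fatty acids, stood at 10.83, 10.93, 10.35, 10.94 and 10.95 in the controls and at 8.46, 9.67, 9.62, 9.44 and 8.89 at 45 mg/kg, lower on every treated array (-1.58, SE 0.20, adjusted p = 4.16e-08). Cidea, a lipid droplet protein, rose by 2.11 (SE 0.30, adjusted p = 7.91e-07), Lpl, lipoprotein lipase, by 1.42 and the elongase gene Elovl1 by 0.40. Acsm3, an acyl-CoA synthetase for medium chains, fell by 1.02 (SE 0.22, adjusted p = 0.00252). Of 37 targets of PPAR-alpha and genes of fatty acid oxidation, 0 were called. The 2 with the lowest p were Crat at -0.67 (adjusted p = 0.0803) and Ehhadh at -0.64 (adjusted p = 0.201), both under limma. An unadjusted p below 0.05 was found for 3 of the 37, and for 12.8% of all genes.

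**Figure D3:**
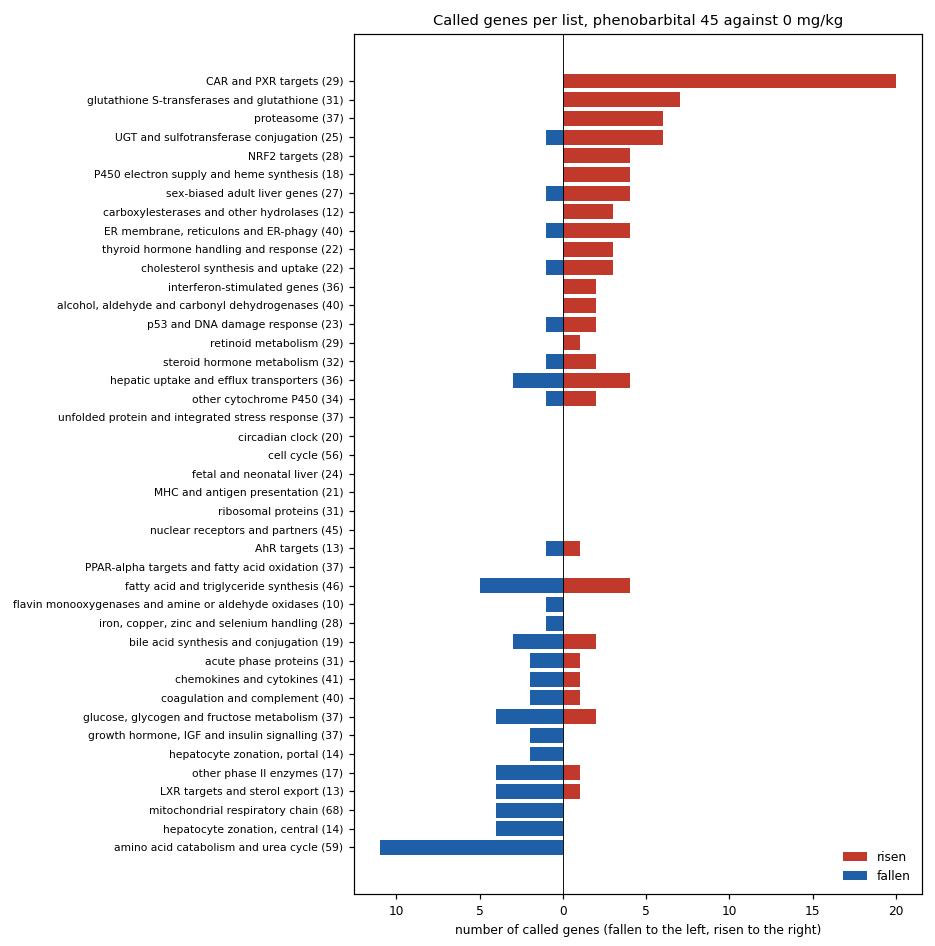
Number of genes called at phenobarbital 45 against 0 mg/kg in each gene list, risen to the right in red and fallen to the left in blue, with the number of measured genes in brackets. CAR and PXR targets lead with 20 risen, and amino acid catabolism and the urea cycle hold the most fallen genes with 11.

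Amino acid catabolism was the list with the most fallen genes. Of 59 genes of amino acid catabolism and the urea cycle, 0 rose and 11 fell, and the median was -0.19. Without 45 mg/kg replicate 5, 7 fell. In 12 of the 59 all treated arrays lay below all controls, as they did in 3.39% of all genes. Prodh2, hydroxyproline dehydrogenase, stood at 11.28, 11.07, 11.34, 11.13 and 11.11 in the controls and at 10.61, 10.67, 10.66, 10.53 and 10.49 when treated. Both groups were tight and separate (-0.59, SE 0.10, adjusted p = 5.91e-05). Asl, an enzyme of the urea cycle, fell by 0.62 (SE 0.12, adjusted p = 0.000227), but its second, about equally bright probe set, at -0.48, was not called (adjusted p = 0.218). Mat1a, which makes S-adenosylmethionine, fell by 0.42. Of 37 genes of glucose, glycogen and fructose metabolism, 2 rose and 4 fell, and without 45 mg/kg replicate 5, 0 rose and 3 fell. Pc, pyruvate carboxylase of gluconeogenesis, fell by 0.57 and Pygl, liver glycogen phosphorylase, by 0.41. The glycolytic genes Pgk1 (0.32) and Pgam1 (0.26) rose, with calls lost in 3 and 4 of 10 leave-one-out fits. Car5a, the mitochondrial carbonic anhydrase that supplies bicarbonate to the urea cycle and to pyruvate carboxylase, fell by 0.98 (SE 0.19, adjusted p = 0.000551).

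Respiratory chain genes were slightly lower and proteasome genes slightly higher in most members. Of 68 respiratory chain genes, 0 rose and 4 fell, and 5 of the 68 had a log2 fold change above 0, against 6218 of all 14217 genes. Their median was -0.17 and their lowest value -0.36. At 5 mg/kg, against the same controls, their median was -0.13, and 0 of the 68 were called between 45 and 5 mg/kg. Ndufs7, a subunit of complex I, stood at 10.69, 10.78, 10.64, 10.77 and 10.63 in the controls and at 10.33, 10.48, 10.25, 10.44 and 10.36 at 45 mg/kg, a small but complete separation (-0.33, SE 0.07, adjusted p = 0.000576). Ndufv1 fell by 0.28, Cox6b1 by 0.26 and Ndufb3 by 0.24, calls that were lost in 2, 4 and 8 of 10 leave-one-out fits. Without 45 mg/kg replicate 5 the list had 2 fallen genes, and with the 15 phenobarbital arrays alone in the fit 10. Ak4, a mitochondrial adenylate kinase, fell further, by 0.96 (SE 0.14, adjusted p = 2.68e-06), on 1 of its 2 probe sets, while the other, dim, was at -0.14.

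Of 37 proteasome genes, 6 rose and 0 fell, 34 of 37 had a log2 fold change above 0, and the median was 0.22. Psma1, a subunit of the core particle, stood at 9.89, 9.96, 9.63, 10.09 and 10.06 in the controls and at 10.38, 10.40, 10.44, 10.42 and 10.47 when treated. The treated arrays agreed within 0.1, all above the controls (0.49, SE 0.10, adjusted p = 0.00177). Psmd14, the deubiquitinase of the lid, rose by 0.47 (0.47 and 0.55 on its other probe sets, neither called), Psma5 by 0.41 and Psmd2 by 0.29. At 5 mg/kg, against the same controls, the proteasome median was 0.07, and 0 of the 37 were called between 45 and 5 mg/kg. Without 45 mg/kg replicate 5, 2 proteasome genes rose. The 31 measured ribosomal protein genes, by contrast, had 0 called under limma and 2 at an unadjusted p below 0.05.

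**Figure D4:**
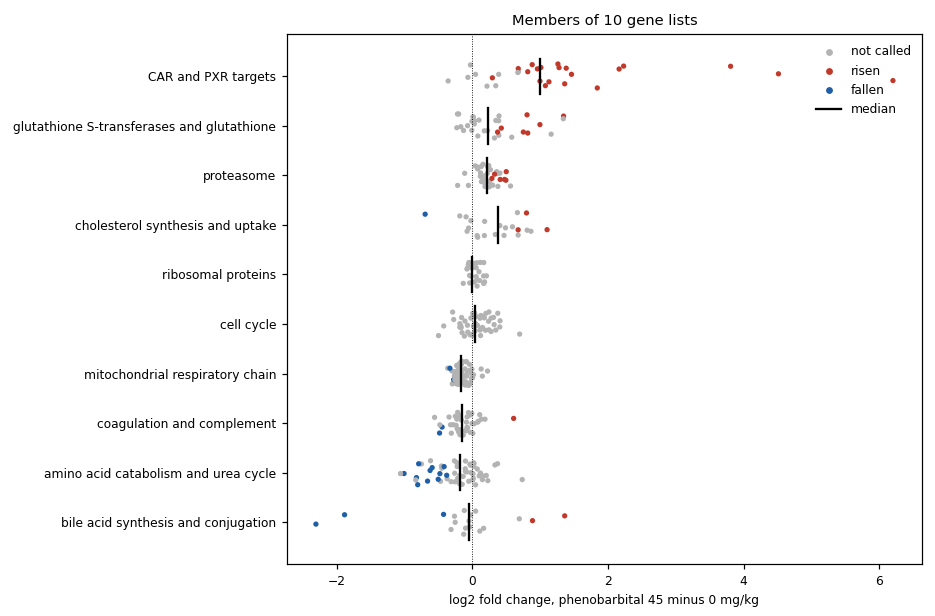
Log2 fold change of phenobarbital 45 against 0 mg/kg (horizontal axis) for each measured member of 10 gene lists, 1 point per gene, with a black bar at the list's median. Nearly all proteasome genes (34 of 37) lie above 0 and few respiratory chain genes do (5 of 68), with medians of 0.22 and -0.17.

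Among genes of the ER membrane, 12.5% were called, against 2.7% of all genes. The largest rise among them was that of an ER-phagy receptor. Of 40 genes of the ER membrane, reticulons and ER-phagy, 4 rose and 1 fell, and without 45 mg/kg replicate 5, 2 rose and 1 fell. Retreg1, an ER-phagy receptor that bends ER membrane and delivers it to autophagy, stood at 8.07, 6.73, 7.19, 8.22 and 7.24 in the controls and at 10.15, 9.66, 9.39, 9.62 and 10.26 at 45 mg/kg. The difference of 2.33 (SE 0.39, adjusted p = 3.76e-05) was seen on every array, with 0.52 on a dimmer probe set. Tex264, a second ER-phagy receptor, rose by 0.56, a call lost without 45 mg/kg replicate 2 or 4, and Atl2, an ER-shaping atlastin, by 0.39, a call lost in 7 of 10 leave-one-out fits and absent on its second probe set (0.74, adjusted p = 0.724). Of 37 genes of the unfolded protein and integrated stress response, 0 were called under limma and 5 had an unadjusted p below 0.05. The lowest p were those of the ER chaperone gene Canx (0.35, adjusted p = 0.106) and of Hsph1 (0.46, adjusted p = 0.25).

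Several of the largest changes were in genes outside drug metabolism. Zdhhc2, a palmitoyltransferase, stood at 5.66, 5.72, 5.65, 6.05 and 5.33 in the controls and at 8.16, 8.40, 7.44, 8.22 and 7.64 when treated, a 4.89-fold rise (SE 0.20 log2 units, adjusted p = 3.59e-13). Fbxo27, a glycoprotein-binding subunit of ubiquitin ligases, stood at 4.35, 4.66, 5.02, 4.56 and 4.52 and then at 7.02, 6.58, 6.57, 6.602 and 6.68 (2.07, SE 0.19, adjusted p = 1.23e-12). Both were clear of the controls on each array. App, encoding the amyloid precursor protein, rose by 1.38 (SE 0.13, adjusted p = 1.23e-12), and its 2 other probe sets rose by 1.90 and 2.70. The homeobox gene Meox2 rose by 2.33 (SE 0.32), Snx10, a sorting nexin of endosomes, by 2.10 (SE 0.47), Rell1, of the tumour necrosis factor receptor family, by 1.503 (SE 0.21), Grk5, a kinase of G protein-coupled receptors, by 1.49 (SE 0.22) and Mab21l3 by 1.58 (SE 0.33). Gpm6a, a membrane glycoprotein of neurons, stood at 3.93, 4.51, 4.38, 4.11 and 4.63 in the controls and at 8.01, 7.11, 7.30, 7.07 and 8.45 at 45 mg/kg. The groups were separate here, but the gene varied widely in other groups of the series (SE 0.89), and its rise of 3.27 (adjusted p = 0.0261) was not called when control replicate 1, control replicate 4, treated replicate 1 or treated replicate 5 was left out.

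Among the fallen genes of other roles, Qsox1, which forms disulfide bonds in secreted proteins, fell by 1.53 (SE 0.26, adjusted p = 5.17e-05), with -1.16 on its second probe set. Inhbb, the activin B subunit, fell by 1.46 (SE 0.33, adjusted p = 0.00389), and Sulf2, an extracellular sulfatase of heparan sulfate, by 0.89 (SE 0.18, adjusted p = 0.000749). Qpct, glutaminyl cyclase, fell by 1.499, a call lost in 6 of 10 leave-one-out fits. Popdc2, a membrane protein known from heart, fell by 1.01 and lost its call in 3 of 10 leave-one-out fits. Its second, dim probe set was at -0.22 and was not called (limma adjusted p = 0.584). Cimap1b fell by 0.93 and Prelid2 by 0.98, the second not called without 45 mg/kg replicate 5.

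Calls among genes of growth and damage signalling differed between the lists. The called share was above the 2.7% of all genes for the p53 and DNA damage response. It was also above it for growth hormone, IGF and insulin signalling. Of 56 cell cycle genes, 0 were called under limma, 3 had an unadjusted p below 0.05, 38 had a log2 fold change above 0, and the lowest p were those of Cdkn1c (-0.42, adjusted p = 0.26) and Myc (0.70, adjusted p = 0.356). Of 23 genes of the p53 and DNA damage response, 2 rose and 1, Rprm, fell. Gadd45b, a stress-induced partner of CAR in mice, stood at 5.79, 4.72, 4.82, 4.97 and 4.48 in the controls and at 8.20, 7.19, 6.48, 5.25 and 6.86 at 45 mg/kg. Treated replicate 4 lay within the control range, and the rise was 1.84 (SE 0.31, adjusted p = 3.2e-05). Phlda3, an inhibitor of Akt signalling, rose by 0.96 (SE 0.21, adjusted p = 0.00219). Of 37 genes of growth hormone, IGF and insulin signalling, 0 rose and 2 fell, both carriers of IGF in blood: Igfals by 0.93 and Igfbp3 by 0.75, each call lost in 3 of 10 leave-one-out fits, among them the fit without 45 mg/kg replicate 5. The second probe set of Igfbp3, about as bright, was at -0.42 and was not called (adjusted p = 0.565). Nuclear receptors and their partners (45 genes) and the circadian clock (20 genes) held 0 called genes under limma and 6 and 2 with an unadjusted p below 0.05. The lowest p among the receptors were those of Rarb (-0.43, adjusted p = 0.168) and Rora (0.75, adjusted p = 0.174), and among the clock genes those of Rora and Nfil3 (-0.34, adjusted p = 0.361).

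Among the genes listed here as differing along the liver lobule, those called all fell. Genes on other lists were not sorted by their place in the lobule. Of 14 central genes, 0 rose and 4 fell (28.6% called, median -0.23). Of 14 portal genes, 0 rose and 2 fell (14.3% called, median -0.22), and 2.7% of all genes were called. Without 45 mg/kg replicate 5, 3 central and 0 portal genes fell. Glul, glutamine synthetase of the innermost central cells, stood at 11.41, 11.40, 11.06, 11.23 and 11.28 in the controls and at 10.96, 10.60, 10.38, 10.60 and 10.53 when treated, lower throughout (-0.66, SE 0.16, adjusted p = 0.00708). Its probe sets disagreed: a second was at -0.62 (adjusted p = 0.0701) and the third, the most variable, at -0.07 (adjusted p = 0.986). Rgn, regucalcin, fell by 0.59, and the portal gene Hal, histidine ammonia-lyase, by 0.82, a call lost in 4 of 10 leave-one-out fits. Of 27 genes that differ between adult male and female rat liver, 4 rose, Cyp2c7, Cyp2c11, Cyp3a2 and the transporter gene Ust5r, and 1, Rgn, fell. The call of Ust5r (1.92) was lost in 7 of 10 leave-one-out fits. Of 24 fetal and neonatal genes 0 were called under limma and 4 had an unadjusted p below 0.05, led by H19 (-1.36, adjusted p = 0.177) and Sult1e1 (1.54, adjusted p = 0.184).

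Some secreted and immune genes were called, in both directions. The shares were 9.68% of acute phase genes and 7.5% of coagulation and complement genes, against 2.7% of all genes. They were 7.32% for chemokines and cytokines, 5.56% for interferon-stimulated genes and 0% for antigen presentation. Of 31 acute phase genes, 1 rose and 2 fell (1 fell without 45 mg/kg replicate 5), and 8 had all treated arrays below all controls, against 3.39% of all genes. Crp, C-reactive protein, rose by 1.13 and was not called in 6 of 10 leave-one-out fits. Itih1, a plasma protease inhibitor chain, fell by 0.47 (SE 0.09, adjusted p = 0.000537). Serpina3n fell by 0.53, a call lost in 5 of 10 leave-one-out fits. Of 40 coagulation and complement genes, 1 rose and 2 fell, and 12 had all treated arrays below all controls. The fallen genes numbered 0 without 45 mg/kg replicate 5 and 8 with the 15 phenobarbital arrays alone in the fit. Pros1, the anticoagulant protein S, stood at 10.30, 10.14, 10.34, 10.30 and 10.18 in the controls and at 10.94, 10.83, 10.80, 10.85 and 10.88 at 45 mg/kg, a narrow and complete separation (0.61, SE 0.09, adjusted p = 2.42e-06). C4bpb, of the complement regulator that binds protein S, fell by 0.48 and C5 by 0.45, with calls lost in 2 and 6 of 10 leave-one-out fits.

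Of 41 chemokines and cytokines, 1 rose and 2 fell. Cxcl13, which attracts B cells, stood at 8.51, 8.56, 8.36, 9.21 and 8.91 in the controls and at 6.45, 7.01, 7.26, 6.69 and 6.45 when treated, lower by more than 1 log2 unit on every array (-1.94, SE 0.41, adjusted p = 0.00154). Il33, an alarmin, fell by 0.85, a call lost without 45 mg/kg replicate 1 or 5. Cxcl9, an interferon-induced chemokine, had control values of 5.89, 5.95, 5.45, 5.28 and 4.50 and treated values of 7.65, 7.10, 7.03, 6.27 and 6.69, all above the controls (1.54, SE 0.34, adjusted p = 0.00245). With Ifi27l2b (1.16) it was 1 of 2 risen genes among 36 interferon-stimulated genes. Of 21 genes of antigen presentation 0 were called under limma, 1 had an unadjusted p below 0.05, and the lowest p were those of Tapbp (0.31, adjusted p = 0.111) and Fcgrt (-0.16, adjusted p = 0.513). The summed macrophage and lymphocyte markers overlapped between the doses, 11.75 to 12.21 and 11.70 to 12.22 for macrophages and 8.19 to 8.52 and 8.29 to 8.58 for lymphocytes, and their part in these results was not tested. Of 8 cholangiocyte markers, 1 rose: Epcam, an adhesion molecule, by 0.74, a call lost in 3 of 10 leave-one-out fits. The marker sum, 8.62 to 9.06 in the controls and 9.10 to 9.77 when treated, did not overlap, and 5 of the 8 markers had a mean below 5. Only 2 of the 8 had a log2 fold change above 0, and their median was -0.07. The sum adds levels before the log is taken, so bright markers weigh most in it. In iron handling, Hjv, hemojuvelin, which upholds hepcidin, was the only called gene of 28 and fell by 0.53, a call lost in 7 of 10 leave-one-out fits.

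At 5 mg/kg, 15 genes were called against the same 5 control arrays (0.106%), 12 risen (0.0844%) and 3 fallen (0.0211%), and 24 without 5 mg/kg replicate 3 or 5 without 5 mg/kg replicate 2. As both comparisons share controls, only the values at each dose are set side by side. Cyp2c7 stood at 10.63, 10.59, 9.42, 10.18 and 11.89 at 5 mg/kg, between the other doses (3.27 at 5 and 6.20 at 45 mg/kg). Ces2c changed by 1.67 and 3.81, Ugt2b1 by 0.96 and 1.38, Cyp2c6v1 by 0.64 and 0.88 and Pgrmc1 by 0.36 and 0.48. The probe set of the Cyp2b pair was at 13.25 ± 0.35 (SD, n = 5) at 5 mg/kg, a change of 1.13 (limma adjusted p = 0.00383). Sc5d had about the same change at each dose, 0.66 and 0.67, as did Inhbb, at -1.48 and -1.46, and Msmo1 was at 1.47 and 1.10. The difference between 45 and 5 mg/kg, tested directly, was called for 97 genes (0.682%), 58 higher (0.408%) and 39 lower (0.274%) at 45 mg/kg, and for 54 genes without 45 mg/kg replicate 5. Cltrn stood at 3.88, 3.83, 3.13, 4.53 and 4.17 at 5 mg/kg, and its difference between the doses was 4.26 (SE 0.38, adjusted p = 1.38e-12). Ces2c differed by 2.14, Zdhhc2 by 1.77, Fbxo27 by 1.70 and App by 1.04. Lower at 45 than at 5 mg/kg were Cyp7a1, which stood at 11.63, 10.81, 10.20, 11.37 and 9.12 at 5 mg/kg (difference -2.81, SE 0.42, adjusted p = 1.43e-05), Cyp8b1 (-2.26), Fads2 (-1.33), Lcmt1 (-1.21) and Rgn (-0.68).

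The response was next set against those to BDE-47 and DE-71 at 50 mg/kg, flame retardants with controls of their own and another dose. BDE-47 at 50 mg/kg had 573 called genes (4.03%, n = 5 against 4), of which 334 rose (2.35%) and 239 fell (1.68%), and DE-71 at 50 mg/kg 1448 (10.2%, n = 4 against 5), of which 687 rose (4.83%) and 761 fell (5.35%). In each 50 mg/kg group, however, an array was near-identical to an array labelled 15 mg/kg of the same agent: BDE-47 50 mg/kg replicate 3 to 15 mg/kg replicate 3 (root mean square difference 0.105) and DE-71 50 mg/kg replicate 4 to 15 mg/kg replicate 5 (0.124). The closest phenobarbital arrays differed by 0.531. The labels do not say whether these are the same RNA, so which dose such an array belongs to is uncertain. Without these 4 arrays, 491 genes were called with BDE-47 and 1911 with DE-71. Of the 196 genes risen with phenobarbital, 130 also rose with BDE-47 (66.3%, and 38.9% of its 334 risen genes), and of the 188 fallen, 75 also fell (39.9%, and 31.4% of its 239). With DE-71, 127 also rose (64.8%, and 18.5% of its 687) and 85 also fell (45.2%, and 11.2% of its 761). Without the 4 arrays, 128 rose and 75 fell with both phenobarbital and BDE-47, and 135 rose and 95 fell with both phenobarbital and DE-71. Genes called in opposite directions numbered 0 with BDE-47 and 1 with DE-71, which was Cyp1a2. Cyp2c7 rose by 6.20 with phenobarbital, 4.87 with BDE-47 and 5.80 with DE-71, and Ces2c by 3.81, 3.86 and 2.85. Zdhhc2 rose by 2.29, 2.53 and 2.23, Retreg1 by 2.33, 2.17 and 2.62, and Lcmt1 fell by 1.59, 1.08 and 1.54. Doses differ between the agents, so these sizes are values side by side.

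**Figure D5:**
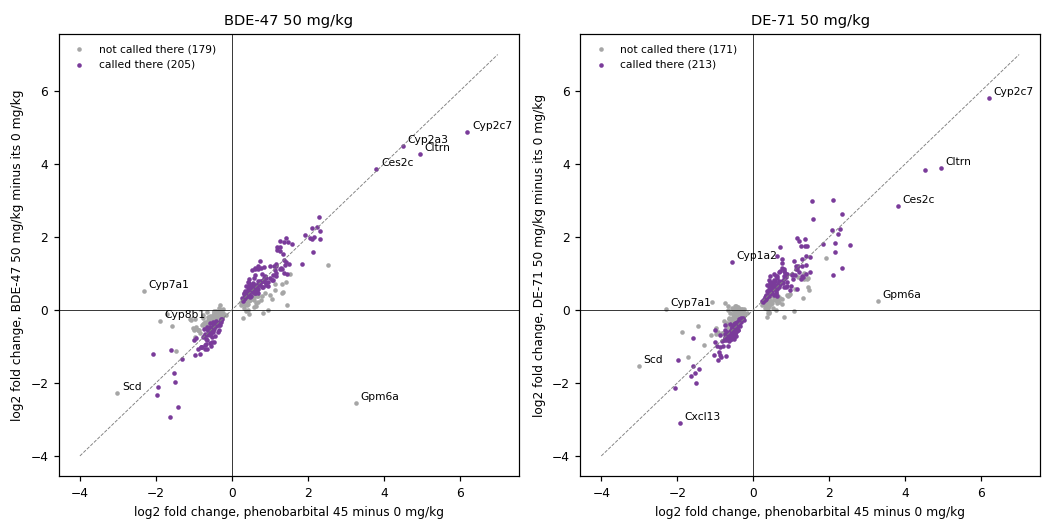
Log2 fold change of the 384 genes called at phenobarbital 45 mg/kg (horizontal axes) and of the same genes at BDE-47 50 mg/kg (left) and DE-71 50 mg/kg (right, vertical axes), each against its own 0 mg/kg group, 1 point per gene, with purple points called in that comparison too (205 and 213 genes) and a dashed line at equal change. Cyp7a1 falls on the phenobarbital axis only, and Gpm6a lies far from the line in both plots.

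A test of the difference between the phenobarbital and BDE-47 responses called 0 genes under limma (0%), with 605 genes at an unadjusted p below 0.05 (4.26%). The lowest adjusted p, 0.125, was shared by 4 genes. Cyp7a1 was at -2.31 with phenobarbital and 0.53 with BDE-47 (difference -2.84, interval -4.07 to -1.60), and Gpm6a at 3.27 and -2.54 (difference 5.82, interval 3.21 to 8.42). The others were Lyplal1 (-0.53), a lysophospholipase-like gene, and Marchf11 (0.52), a ubiquitin ligase. Against DE-71, the difference was called for 21 genes (0.148%), 5 higher (0.0352%) and 16 lower (0.113%) with phenobarbital, and for 5 genes without DE-71 50 mg/kg replicate 2 and 108 without DE-71 50 mg/kg replicate 4, the array near-identical to a 15 mg/kg array. Without all 4 such arrays the count was 95 (28 higher and 67 lower). All 21 genes were among them, while the size of the count depends on arrays of uncertain dose. The difference of Cyp7a1 was then called too (-2.56, adjusted p = 0.0394). Cyp1a1 and Cyp1a2, the classic targets of the aryl hydrocarbon receptor (AhR), differed most clearly. Cyp1a1 was at 1.11 with phenobarbital (interval -0.03 to 2.24, adjusted p = 0.414) and at 6.28 with DE-71, a difference of -5.17 (SE 0.83, adjusted p = 0.000302). Cyp1a2 fell by 0.57 with phenobarbital, a call lost in 8 of 10 leave-one-out fits, and rose by 1.31 with DE-71 (difference -1.88, SE 0.23, adjusted p = 3.38e-07). Of 13 AhR targets, 1 rose with phenobarbital, Inmt, and 1 fell, Cyp1a2. The other differences named here were lower responses of Tifa (-1.83), Selenbp1 (-1.36) and St6galnac2 (-1.99) and higher ones of Rybp (0.77), Gna14 (1.56), Gria3 (2.14), Skil (1.10) and Fgfr3 (1.08), none of them called at phenobarbital 45 against 0 mg/kg.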

How the data were processed

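RNA of the left liver lobe was measured on 74 Affymetrix rat arrays. The authors deposited log2 values made by RMA, per the submitters' processing notes, and its version is not given in the sources used here. Of 31099 probe sets, 57 are controls, 20826 name 1 gene, 436 several and 9780 none in the platform annotation. Each of 14217 genes was read through 1 probe set, the brightest on average over the series among those that name that gene alone.

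A model of 15 group means was fitted with limma 3.58.1 (lmFit and eBayes) in R 4.3.3 over 72 samples, which share 1 estimate of the spread (57 residual degrees of freedom). Before the fit, 2 pairs of same-group arrays that were near-identical (BDE-47 0 mg/kg replicates 3 and 4, DE-71 15 mg/kg replicates 1 and 2; root mean square difference below 0.3) were averaged, and none was a phenobarbital array. A further 2 pairs, each between 15 and 50 mg/kg of BDE-47 or DE-71, were as close; they were kept, with a fit without these 4 arrays added after seeing the data. P-values are two-sided, with Benjamini-Hochberg adjustment over all 14217 genes, and called means an adjusted p below 0.05. Confidence intervals are 95% intervals of the fit. Effects were compared between agents only as differences of each from its own controls. The phenobarbital arrays were not paired by replicate number. Same-numbered arrays at 0 and 45 mg/kg had correlations of -0.115 to 0.188, taken after removing group means, and 1 of 5 was over 0.1. Of the 5 control arrays, 2 correlated best with the treated array of their own number. So few values cannot exclude a pairing. The fit was also run on simulated data with independent noise and no litter or array effects, and the outcome is not reported here. Genes named are the 20 largest rises and falls among called genes whose groups do not overlap, called members of the gene lists, and, in lists with none called, the 2 lowest p. Abcg5, Cyp27a1 and Mpst were named after their values were seen. The members and lists were chosen with earlier results of these data known. Alternatives are given in the closing section.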

Additional observations from a re-analysis of the deposited data

Results flagged for a closer look

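Among 117 named genes, 17 of 234 sets of 5 arrays (7.26%) had an array far from the other 4 on the log2 scale, where chance gives about 1 in 20. At 45 mg/kg, replicate 3 stood apart in 7 of them: low for App (11.359), Gsta4 (11.621), Ifi27l2b (10.41) and Pcp4l1 (5.338), and high for Cyp3a2 (14.26), Hjv (9.48) and Il33 (8.968). Other treated arrays apart were replicate 2 for Asl (9.358), replicate 1 for Fbxo27 (7.019) and replicate 5 for Prelid2 (5.798). Control arrays apart were replicate 1 for C4bpb (12.508) and Rprm (7.394), replicate 2 for Gsta4 (11.006) and Snx10 (3.522), and replicate 3 for Cyp1a2 (12.632), Fads2 (10.35) and Ugt2b15 (11.987).

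The response to phenobarbital 45 mg/kg differed from that to DE-71 50 mg/kg, by the limma test of the difference, for Cyp1a1 (-5.17), Cyp1a2 (-1.883), Tifa (-1.83), Selenbp1 (-1.358), St6galnac2 (-1.989), Rybp (0.772), Gna14 (1.556), Gria3 (2.143), Skil (1.096) and Fgfr3 (1.077).

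Probe sets outside the table of genes also changed. Of the 9780 with no gene name, 37 rose and 23 fell (0.613%), led by 1396155_at (3.936), 1368718_at (2.118), 1379888_at (-1.574) and 1379526_at (-1.065). Of the 436 that name several genes, 12 rose and 2 fell (3.21%), among them the probe set of the Cyp2b pair (1.966).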

How the results depend on the processing

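With 5 arrays a group and many effects below 1.5-fold, the counts depend on which arrays enter. Of 120 named called genes, 71 kept their call under every alternative run and 77 in every leave-one-out fit, and 0 changed direction. With the 15 phenobarbital arrays alone, 739 genes were called at 45 against 0 mg/kg (322 risen, 417 fallen), 177 at 45 against 5 mg/kg (117 and 60), and 6 fell at 5 mg/kg, as 5 did after a further quantile normalization; the cause was not tested. Leaving out an array gave 233 to 356 called genes at 45 mg/kg, 136 to 185 risen and 97 to 171 fallen, 5 to 24 at 5 mg/kg (4 to 22 risen, 1 to 4 fallen) and 54 to 106 at 45 against 5 mg/kg (34 to 66 higher, 20 to 44 lower). For the difference from BDE-47 it gave 0 to 1 called and 0 to 1 higher, and with all 74 arrays as separate samples 1 was called and 1 lower. For the difference from DE-71 it gave 5 to 108 called, 1 to 37 higher and 4 to 71 lower. Without the 4 arrays near-identical across doses, chosen after seeing the data, that difference was called for 95 genes (28 higher, 67 lower) and 388 genes were called at 45 mg/kg. With the replicate block, 393 genes were called at 45 mg/kg, 377 of them shared with the 384. With the 10 arrays alone 438 were called, of which 289 were shared with the 384, and 16 of the 120 named calls were lost. With arrays centred on their medians 381 were called (171 risen, 210 fallen). The neutrophil marker S100a8, not called (0.14), ranged from -0.0352 without 0 mg/kg replicate 3 to 0.461 without 0 mg/kg replicate 4.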
